A study of Mus musculus with 367 samples.

Results

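Matrix fibroblasts of the day 12 wound were split by their level of Crabp1, the cellular retinoic acid-binding protein 1, and the cells with high Crabp1 were compared with the cells without it. Of 367 single cells in the series, 159 came from post-wounding (PW) day 12 and 78 of these were matrix cells by the rule used here. A matrix cell had at least 1000 FPKM of Col1a1, a chain of collagen type I, under 100 FPKM of the mural cell marker Rgs5, under 50 FPKM of the myeloid marker Tyrobp, at most 15% of its summed FPKM on mitochondrial genes and at least 2000 genes above 0. FPKM are fragments scaled by the length of the transcript and by the total of the cell. The high class held 63 cells with at least 50 FPKM of Crabp1, the low class 13 cells under 5 FPKM, and 2 cells lay between the limits. The classes were thus chosen on measured Crabp1 levels, so those levels are a description and carry no test.

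All cells came from excisional wounds of 1.5 cm per side on the back of Sm22-Cre;tdTomato mice of mixed background, which the labels give as 3 to 8 weeks old at wounding. Sm22-Cre drives Cre recombinase from the promoter of Tagln, a gene of contractile cells, and tdTomato stays on in any cell in which Cre was active. Viable tdTomato-high cells were sorted, caught singly in a C1 microfluidic chip and sequenced over full-length cDNA. There were 3 captures at day 12, 2 at day 15 and 2 at day 21, as numbered in the sample titles. The labels do not say whether each was a separate chip run. The descriptions of the 40 cells of day 12 capture 3 name capture 2, and these cells were assigned by their titles. Each time point drew on wounds of 2 to 3 mice, and the sources do not tell which mouse went into which capture, so the captures may differ for technical reasons. At day 12 the p-values and standard errors (SE) rest on a spread estimated over all genes as a function of level. They do not rest on the spread of each gene between the 2 captures tested. Every group carries the same Cre and reporter and every cell passed the same sort, so fibroblasts in which Sm22-Cre was never active are absent from both classes.

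Retinoic acid is made inside cells from vitamin A by retinol and retinal dehydrogenases, is bound in the cytoplasm by CRABP proteins, and reaches nuclear receptors of the RAR and RXR families or is degraded by CYP26 enzymes. In skin, Crabp1 is known as a marker of fibroblasts of the upper dermis and of the dermal papilla. Fibroblasts of the lower, reticular dermis are known for Ly6a, Mgp and other matrix and complement genes. Sfrp4 is a secreted Wnt antagonist, Saa3 an acute phase serum amyloid protein, and Mmp3 the secreted metalloproteinase stromelysin-1. Whether these 3 genes mark the side without Crabp1 was the question put to the cells. Saa3 and Sfrp4 had been proposed from an earlier clustering of these same cells, so their values here are not an independent test.

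Crabp1 (ENSMUSG00000032291, chromosome 9, 54764748 to 54773110, plus strand, mm10) was close to an on-or-off gene in these cells. In the high class its level ran from 68.97 to 9766 FPKM with a median of 948 FPKM, and 30 of the 63 cells held 1000 FPKM or more. All 13 low cells were at 0 FPKM. The 2 cells between the limits held 30.2 FPKM in capture 1 and 40.5 FPKM in capture 3, while the lowest high cells held 68.97 and 69.04 FPKM in capture 3 and 76.3 FPKM in capture 2. No day 12 matrix cell had a value above 0 and below the 2 cells between the limits.

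A value of 0 depends on depth. The sequenced fragments per cell can be estimated because FPKM values move in steps of whole fragments, and the low cells had a median of 1930880 in capture 1 and 2611640 in capture 2, against 1910920 and 1154940 in the high cells. At these depths 3 fragments of Crabp1 correspond to between 1.60 and 15.2 FPKM in the low cells, with a median of 3.09 FPKM. For 12 of the 13 low cells that floor was under the limit of 5 FPKM. The exception was cell 56 of capture 2, with 392970 estimated fragments, in which Crabp1 below 15.2 FPKM could have gone undetected. These floors cover counting error only.

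**Figure D1:**
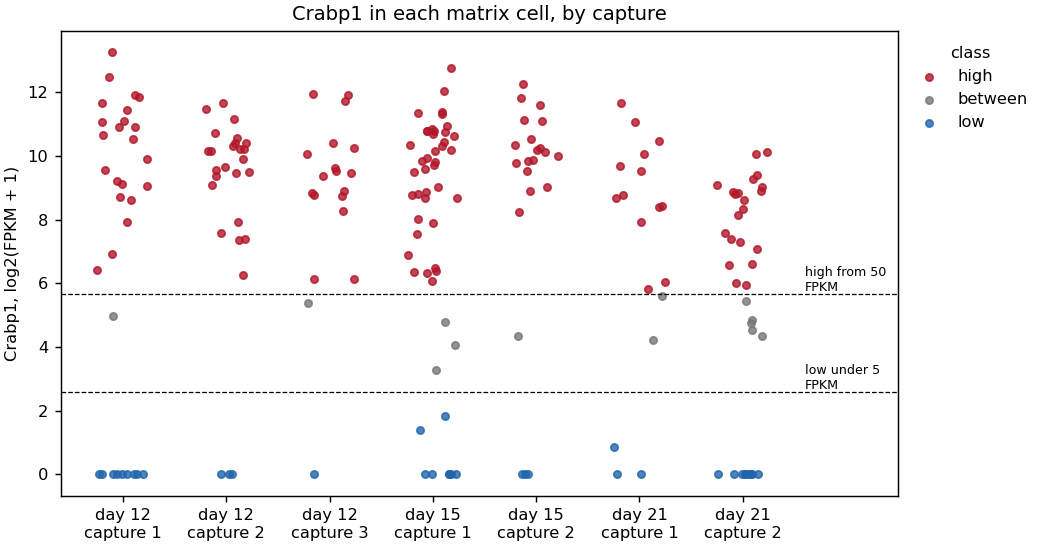
Crabp1 in each matrix cell of the 7 captures as log2(FPKM + 1), 1 point per cell, coloured by class, with dashed lines at the class limits of 50 and 5 FPKM. At day 12 the 13 low cells lie at 0 and 2 cells lie between the limits; 9 of the low cells are in capture 1.

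The low cells were spread unevenly over the captures. They made up 9 of 32 matrix cells in capture 1, or 28.1% with an exact binomial 95% interval of 13.8% to 46.8%. Capture 2 held 3 of 27, or 11.1% with an interval of 2.35% to 29.2%. Capture 3 held 1 of 19, or 5.26% with an interval of 0.133% to 26.03%. These intervals overlap between the captures. At days 15 and 21 the same rule gave 91 high, 24 low and 11 intermediate cells, and the low share lay between 13.6% and 27.8% in the 4 captures.

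Both classes carried the fibroblast markers, which the rule for matrix cells fixed in part. Col1a1 is among the fibroblast markers, Tyrobp among the myeloid and Rgs5 among the mural markers, and all 3 chose the cells. The summed level of 10 matrix fibroblast markers was 5566 to 50450 FPKM in the high cells and 7227 to 59510 FPKM in the low cells, with medians of 28590 and 43660 FPKM. The median number of genes above 0 was 6330 in high and 5542 in low cells of capture 1 and 6246 and 6948 in capture 2, so the 2 captures differed in direction. The median mitochondrial share was 3.41% and 3.77% in capture 1 and 4.74% and 4.19% in capture 2. Of 15 myeloid markers 14 were under 10 FPKM in every low cell, and all 11 endothelial and all 7 T cell markers were too. In the high cells the summed myeloid markers had a median of 0 and reached 2361 FPKM, the summed T cell markers 2039 FPKM and the summed Schwann cell markers 1490 FPKM, while the Schwann markers reached 369 FPKM in the low cells. The summed markers of Rgs5 mural cells reached 374 FPKM in the high and 875 FPKM in the low cells. The part of these other-cell signals in the results below was not tested.

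Some libraries had near-equal profiles. Over the 12561 pairs of day 12 cells the median Pearson correlation of log2(FPKM + 1) was 0.41, and 9 pairs, all within capture 2, were at 0.75 to 0.97 while no other pair passed 0.62. The highest, 0.97, joined cell 62 of the high class, with 166 FPKM of Crabp1 and 8151 genes, to cell 65 of the low class, with 0 FPKM and 6948 genes. These 2 cells held 8643 and 9215 FPKM of Mgp, 106 and 112 FPKM of Thbs3, and 1226 and 1259 FPKM of Vmp1. The other pairs included the high cells 15, 33 and 42, each beside a cell outside the classes. At day 21, 4 pairs of capture 2 were at 0.73 to 0.89, and 1 of them joined a high and a low cell. Calls lost without cell 62, or without both 62 and 65, are given beside each gene.

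Sfrp4 (ENSMUSG00000021319, chromosome 13, 19623104 to 19632994) was found mostly on the low side. In capture 1, 5 of 9 low cells held 47.9, 1083, 2688, 2695 and 3269 FPKM while the other 4 were at 0, and all 22 high cells were at 0. In capture 2 a single low cell held 71.7 FPKM, the other 2 were at 0, and all 24 high cells were at 0. In capture 3 the only low cell held 53.1 FPKM, and 1 of 17 high cells held 420 FPKM. At 10 FPKM or more, Sfrp4 RNA was thus present in 7 of 13 low cells (53.8%) and 1 of 63 high cells (1.59%). The classes overlapped because 6 low cells had none of it.

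The test of the same difference fell just short of the threshold. On the scale of the mean log2(FPKM + 1), the class difference in Sfrp4, high minus low, was -3.82 ± 0.92 (SE), with an adjusted p of 0.0539 in limma. This SE, like the others at day 12, came from the spread over all genes and not from that between the 2 captures. The difference was -5.57 in capture 1 and -2.06 in capture 2. In capture 3, which did not enter the fit since it held 1 low cell, the difference was -5.25. The calls made by limma at day 12 were few, 7 of 12444 genes tested, or 0.0563% of them, with 0.0241% higher and 0.0321% lower in Crabp1-high cells. The fit rests on 2 captures and 1 residual degree of freedom, and no gene passed without the capture as a block, without the variance trend, or when capture 3 entered with its 1 low cell. With the log2 of the class mean FPKM in place of the mean of log2 values 6 genes passed, and of the 7 only Mgp was among them. Without cells 62 and 65 of capture 2 the Sfrp4 difference was -4.33 with an adjusted p of 0.105 in limma.

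Saa3 (ENSMUSG00000040026, chromosome 7, 46711998 to 46715700) did not mark the low side. Of 13 low cells, 12 held at most 1.10 FPKM and cell 56 of capture 2 held 44.6 FPKM. Among the high cells 9 of 63 held 253 to 36811 FPKM, of which 2 were in capture 1, 5 in capture 2 and 2 in capture 3, and 1 more cell reached 9.53 FPKM. The median was 0.21 FPKM in high and 0.40 FPKM in low cells, and most cells of both classes were under 10 FPKM. The class difference was 0.63 ± 0.88 (SE), with an adjusted p of 0.903 in limma. When the log2 of the class mean FPKM was taken instead, which lets a few cells with very high values count for more, the difference was 5.60 with an adjusted p of 0.0472 in limma.

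Of the 9 high cells with Saa3, 7 held at least 10 FPKM of Cxcl5, a neutrophil-attracting chemokine, which was present at that level in 13 of 63 high cells and in none of the 13 low cells. By capture, Cxcl5 was at that level in 1 of 22, 9 of 24 and 3 of 17 high cells, while 9 of the 13 low cells were in capture 1. The counts over all captures thus mix the class with the capture. The Cxcl5 levels of the 7 cells ran from 36.5 to 988 FPKM. All 7 were in captures 2 and 3, and cell 62 of the pair with near-equal profiles was among them. None of the 9 held Sfrp4, nor did the low cell with Saa3, so no day 12 matrix cell of either class held both genes at 10 FPKM or more. At that level Sfrp4 was in 1 of 63 high and 7 of 13 low cells, and Saa3 in 9 of 63 and 1 of 13. With so few cells, the lack of overlap does not show that the 2 genes exclude each other.

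Mmp3 (ENSMUSG00000043613, chromosome 9, 7445822 to 7455975) was unevenly placed. In capture 1, 4 of 9 low cells held 950, 1645, 1766 and 2112 FPKM, and 1 of 22 high cells held 23.1 FPKM. Capture 2 had all 3 low cells at 0 and 3 of 24 high cells held 451 to 760 FPKM. In capture 3 the low cell held 59.2 FPKM and 5 of 17 high cells held 36.2 to 1072 FPKM. The class difference was -1.54 ± 0.91 (SE) with an adjusted p of 0.825 in limma, and it changed sign from -4.55 in capture 1 to 1.47 in capture 2.

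**Figure D2:**
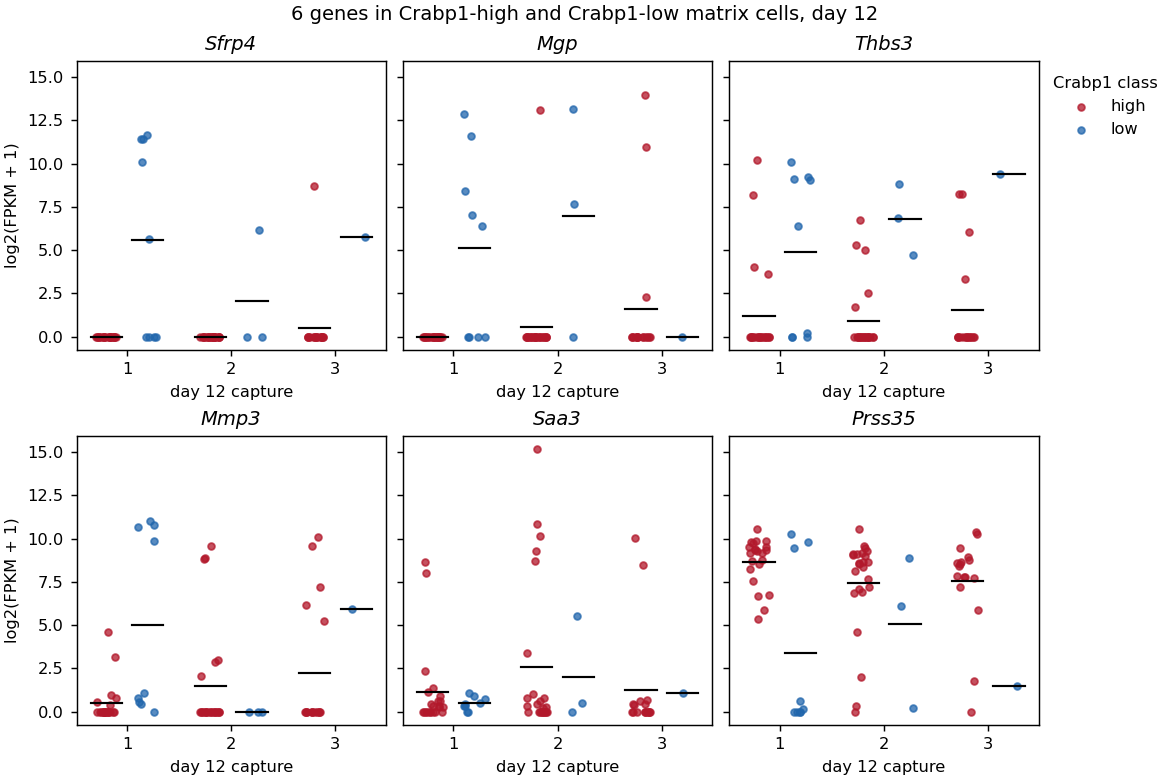
Level of 6 genes in each day 12 matrix cell as log2(FPKM + 1), by capture and Crabp1 class, with a bar at the mean of each class. Sfrp4, Mgp and Thbs3 are at 0 in most high cells and above 0 in many low cells, Saa3 is at 10 FPKM or more in 9 high cells, and Prss35 is above 0 in 61 of 63 high cells.

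Of the genes that passed the test, 4 were lower in Crabp1-high cells: Mgp, Thbs3, Vmp1 and Gm37750. Mgp, the matrix Gla protein, an inhibitor of calcification (ENSMUSG00000030218, chromosome 6, 136872435 to 136875823), was lower by the most, with a difference of -5.77 ± 0.99 (SE) and an adjusted p of 8.18e-05 in limma. In capture 1, 5 of 9 low cells held 84.4, 129, 335, 3056 and 7433 FPKM and all 22 high cells were at 0. In capture 2 the low cells held 0, 203 and 9215 FPKM, and 1 of 24 high cells held 8643 FPKM. Capture 3 went the other way, with the low cell at 0 and 2 of 17 high cells at 1992 and 16236 FPKM. Cells 62 and 65 hold most of the Mgp of capture 2, and the call was lost without them: without both the difference was -4.49 ± 1.16 (SE) and the adjusted p 0.0815 in limma, and without cell 62 alone it was -6.04 with an adjusted p of 2.58e-05 in limma. Mgp and Sfrp4 overlapped in part: 4 low cells and 1 high cell held both at 10 FPKM or more.

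Thbs3 encodes thrombospondin 3, a matricellular protein (ENSMUSG00000028047, chromosome 3, 89215180 to 89226837). Its difference was -4.81 ± 1.00 (SE), with an adjusted p of 0.0062 in limma, and it was -3.72, -5.89 and -7.88 in captures 1, 2 and 3. Without cells 62 and 65 it was -4.92, with an adjusted p of 0.0351 in limma. It was at 10 FPKM or more in 9 of 13 low cells and 10 of 63 high cells. All 7 low cells with Mgp also held Thbs3, and so did 6 of the 7 with Sfrp4. Its locus overlaps that of Mtx1, and whether strand was used in counting is not given in the sources used here, so reads of the neighbours cannot be told apart where they overlap.

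Vmp1, which encodes a membrane protein of autophagy, was expressed in both classes and differed in level rather than in the cells that held it. Low cells held 573 to 6033 FPKM with a median of 1578 FPKM and high cells a median of 605 FPKM, and the difference was -1.84 ± 0.41 (SE) with an adjusted p of 0.0159 in limma. The class values differed in the same direction in all 3 day 12 captures. With single low cells left out it was called in 7 of 12 fits. The Vmp1 locus overlaps Mir21a, a microRNA gene. Gm37750, a short transcript of unclassified type, was called with -1.67 ± 0.38 (SE) and an adjusted p of 0.023 in limma, yet its difference was 0.10 in capture 1 and -3.43 in capture 2. Without cells 62 and 65, Vmp1 was at -1.97 with an adjusted p of 0.00128 and Gm37750 at -1.98 with an adjusted p of 1.51e-04, both in limma.

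The 3 genes called higher in Crabp1-high cells were Prss35, Gm10443 and Gm28661. Prss35, a serine protease-like secreted protein (ENSMUSG00000033491, chromosome 9, 86743649 to 86758443), was at 10 FPKM or more in 58 of 63 high cells and 5 of 13 low cells. Its level in the high cells ran up to 1524 FPKM with a median of 393 FPKM, and the low cells with it held 66.6, 465, 717, 893 and 1235 FPKM. The difference was 3.83 ± 0.85 (SE) with an adjusted p of 0.0159 in limma, and it was 5.31, 2.36 and 6.08 in captures 1, 2 and 3. Prss35 was the only protein-coding gene among the 3. Its call too was lost without cells 62 and 65, at 2.78 ± 0.84 (SE) and an adjusted p of 0.355 in limma.

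The other 2 are pseudogenes. Gm10443, a processed pseudogene, differed by 2.85 ± 0.68 (SE) with an adjusted p of 0.0491 in limma. Its call was lost without cell 62 alone (2.84, adjusted p 0.0841 in limma) and kept without cells 62 and 65 (3.70, adjusted p 0.0053 in limma). Gm28661, an unprocessed pseudogene on chromosome 1, differed by 2.04 ± 0.38 (SE) with an adjusted p of 4.18e-04 in limma, and by 1.35 with an adjusted p of 0.0368 in limma without cells 62 and 65. In capture 3 it was at -0.91, below 0. Reads of such copies can be split with the genes they derive from, so both are uncertain.

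Further down the ranking, genes that had the same sign in both captures but did not pass the adjusted threshold were of several kinds. On the high side they were Mmp11 (3.75), a metalloproteinase of stromal cells, Lrrc15 (3.11), a membrane protein of activated fibroblasts, Ly6e (2.34), a GPI-anchored surface protein, Timm13 (3.63), Fis1 (3.26) and Ndufb8 (2.52) of mitochondria, Fcf1 (3.60) of ribosome assembly, Ciao2b (3.70) of iron-sulfur protein assembly, and the pseudogene Rps16-ps2 (2.71), all as differences on the log2 scale. On the low side they were Serping1 (-3.37), the inhibitor of complement C1, Cfb (-3.01), complement factor B, F3 (-3.42), tissue factor, Fxyd1 (-3.64), a regulator of the sodium pump, Cygb (-2.96), cytoglobin, Rnmt (-3.46), Tmem150a (-3.36) and the miRNA gene Gm27512 (-2.97). Their adjusted p ran from 0.148 to 0.340 in limma. In capture 3, which was not in the fit, 6 of the 8 on the low side were above 0, namely Serping1 (2.59), Rnmt (2.83), F3 (1.03), Cfb (1.00), Cygb (0.90) and Tmem150a (0.89), and 4 of the 9 on the high side were below 0, namely Ciao2b (-3.86), Ndufb8 (-1.23), Fis1 (-0.14) and Rps16-ps2 (-0.09). Among all tested genes 742 had an unadjusted p under 0.05, of which 483 were higher and 259 lower in high cells.

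The low cells did not form a uniform group. Cells 4 and 38 of capture 1 held no Sfrp4, Mgp, Thbs3 or Cfb but 893 and 1235 FPKM of Prss35, 340 and 360 FPKM of Lrrc15 and 3114 and 1068 FPKM of Mmp11, within the range of the high cells. Cell 32 of the same capture combined 717 FPKM of Prss35 with 47.9 FPKM of Sfrp4 and 915 FPKM of Ly6a, a surface antigen of mesenchymal progenitors. By contrast cells 21 and 50 held Sfrp4, Mgp, Mmp3, Thbs3, Cfb and Serping1 together and no Prss35, with Mgp at 7433 and 3056 FPKM.

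Other combinations occurred as well. Cell 49 had Mmp3 at 950 FPKM, Ly6a at 2802 FPKM and Cfb at 620 FPKM without Sfrp4. Cell 16 had Mmp3 at 1766 FPKM without Mgp, Sfrp4 or Prss35. In capture 2 each low cell was different again: cell 65 held Mgp alone of the 3 genes Mgp, Sfrp4 and Prss35 at 10 FPKM or more, cell 2 Sfrp4 and Prss35, and cell 56 Mgp, Prss35 and Saa3. The single low cell of capture 3 held Thbs3 at 673 FPKM, Ly6a at 859 FPKM and Cilp at 471 FPKM, with Sfrp4 at 53.1 FPKM and no Mgp.

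**Figure D3:**
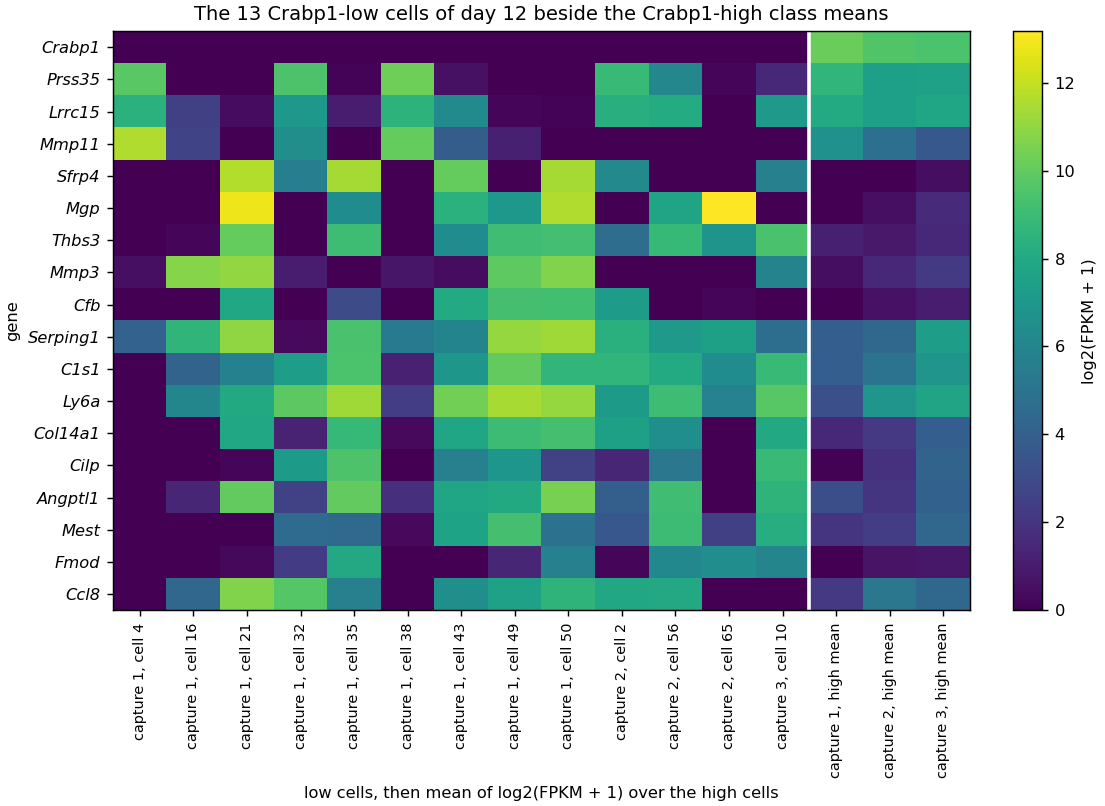
Level of 18 genes as log2(FPKM + 1) in each of the 13 Crabp1-low cells of day 12, with the mean over the Crabp1-high cells of each capture in the 3 columns at the right. Cells 4 and 38 of capture 1 show Prss35, Lrrc15 and Mmp11 like the high means, while cells 21 and 50 show Sfrp4, Mgp, Mmp3, Cfb and Serping1.

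Because the low class is small, single cells carried weight. When each of the 12 low cells of captures 1 and 2 was left out in turn, the number of called genes ran from 1, without cell 56 of capture 2, to 15, without cell 65 of capture 2. Mgp passed in 11 of these 12 fits and failed without cell 65 of capture 2 (adjusted p 0.168 in limma). Thbs3 also passed in 11 and failed without cell 56 of capture 2 (adjusted p 0.452 in limma), while Gm28661 passed in 10, Prss35 in 9, Vmp1 and Gm10443 in 7 each, Gm37750 in 5 and Sfrp4 in 4. The differences of Mgp stayed between -7.51 and -4.22, those of Sfrp4 between -4.33 and -2.79, and those of Prss35 between 2.63 and 4.79.

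Retinoid handling outside Crabp1 showed no member past the threshold. Of 15 tested genes of the list, 7 were above 0 and 8 below, with a median difference of -0.01 against 0.15 over all tested genes. Fabp5, a fatty acid-binding protein that also binds retinoic acid, had the largest difference, 2.38 ± 0.98 (SE, adjusted p 0.824 in limma), and was at 10 FPKM or more in 39 of 63 high and 5 of 13 low cells. Crabp2, the paralog of Crabp1, was rare in both classes, being seen in 5 of 63 high against 2 of 13 low cells, with a difference of -0.45 ± 0.68 (SE). Cyp26b1, which degrades retinoic acid, reached 10 FPKM in 9 high cells and 2 low ones, its difference being -0.31 ± 0.84 (SE). The remaining tested members ranged from -1.01 for Rxrb to 0.74 for Rdh10.

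Complement genes lay mostly on the low side by direction: 9 of 10 tested members were below 0, with a median of -1.46, and none passed the threshold. C1s1, a protease of the C1 complex, differed by -2.36 ± 0.89 (SE, adjusted p 0.813 in limma) and by about the same in each day 12 capture, -2.01, -2.71 and -2.05. Serping1 and Cfb were of opposite sign in capture 3, at 2.59 and 1.00. Of the 11 chemokines tested 7 were below 0, yet the largest difference was on the high side: Ccl2, which attracts monocytes, was at 10 FPKM or more in 28 of 63 high cells and 1 of 13 low cells, with 2.49 ± 0.94 (SE, adjusted p 0.813 in limma). Ptx3, a pentraxin of the acute phase, was at that level in 31 of 63 and 1 of 13 cells, with 2.59 ± 0.93 (SE, adjusted p 0.759 in limma), and 10 of 12 acute phase and innate defence genes were above 0.

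Matricellular and adhesive genes held 2 of the 7 calls, Mgp and Thbs3, and 18 of 24 were below 0 with a median of -1.17. Tnn, tenascin N, was on the other side with 2.75 ± 0.99 (SE, adjusted p 0.774 in limma). Of 17 fibrillar and associated collagens 12 were below 0 and none passed. Col14a1, a collagen that decorates fibrils, differed by -2.99 ± 1.00 (SE) and was at 10 FPKM or more in 8 of 13 low and 24 of 63 high cells, whereas Col7a1, the anchoring fibril collagen, differed by 2.81 ± 0.97 (SE) and was found in 3 of 13 low and 45 of 63 high cells. Of 15 proteoglycans 10 were below 0. Fmod, fibromodulin, had -2.77 ± 0.90 (SE) and was in 5 of 13 low and 4 of 63 high cells. Fbln5, an elastic fibre protein, had 2.99 ± 1.00 (SE) and was in 5 of 13 low and 45 of 63 high cells.

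Lists of dermal layers pointed in opposite directions by count. Of 11 tested genes of the papillary or upper dermis 10 were above 0, with a median of 0.81 and none called. Of 16 tested genes of the reticular or lower dermis 11 were below 0, with a median of -0.89, and Mgp was the one called. Ly6a differed by -2.55 ± 0.82 (SE, adjusted p 0.535 in limma), Angptl1, an angiopoietin-like protein, by -2.51 ± 1.00 (SE), and Cd34, a surface glycoprotein of progenitors, by -2.43 ± 1.00 (SE). In capture 3, which was not in the fit, Cd34 was above 0 at 1.29, while Ly6a was at -2.08 and Angptl1 at -4.48. Mest, which is imprinted, was at 10 FPKM or more in 8 of 13 low and 24 of 63 high cells. Over all tested genes 58.3% were above 0.

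Among the other programmes, 19 of 22 cell cycle genes were above 0 with a median of 0.92, and Birc5, survivin, was at 10 FPKM or more in 8 of 63 high cells and 0 of 13 low cells. Of 17 contractile genes 12 were above 0, with Flna, filamin A, at 2.08 ± 0.91 (SE). None of these genes passed the threshold. Of 26 mesenchymal transcription factors 13 were above and 13 below 0, and Nfib at -2.57 ± 0.91 (SE) was the largest. Lists of glycolysis and hypoxia, adipogenic genes, TGF-beta and BMP, Wnt, elastic fibre and interferon genes had medians between 0.00 and 0.33 and no call. Lists of metalloproteinases, immediate early genes, collagen folding, surface receptors and the dermal papilla had medians between -0.08 and 0.38 and no call. Of 9 tested mural markers 8 were below 0, with a median of -0.66 and no call.

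The study also defined 12 subclusters of wound fibroblasts, sC1 to sC12, in droplet-based data of day 12 wounds, and their marker names were used here as lists. Crabp1 is in the lists of sC1, sC4 and sC7, Saa3 in that of sC5 and Sfrp4 in that of sC12. By CRABP1 expression, the study counted sC1, sC4, sC5, sC7 and sC8 as positive and sC2, sC6, sC10 and sC12 as negative. In its staining of PDGFRA-positive fibroblasts, those with CRABP1 were enriched under the epidermis and those without lay mainly in the lower dermis. Without Crabp1 itself, 24 of 26 sC1 genes tested (92.3%) and 93 of 109 sC4 genes (85.3%) were above 0 at day 12, with medians of 0.95 and 0.77. For sC7 it was 54 of 86 (62.8%) and for sC5, the list with Saa3, 46 of 72 (63.9%), both near the 58.3% of all genes. At days 15 and 21 it was 66 of 86 (76.7%) for sC7 and 36 of 72 (50%) for sC5, against 56.9% of all genes. The sC8 list had 23 of 38 (60.5%) above 0 at day 12 and 14 of 38 (36.8%) later. The study found sC4 enriched for markers of dividing cells and proposes it as a cycling subset of sC1. The lists of sC1 and sC4 thus need not be independent.

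The lists of sC2, sC10 and sC12 leaned to the low side at day 12. Of their tested genes 46 of 125 (36.8%), 21 of 56 (37.5%) and 58 of 158 (36.7%) were above 0, with medians of -0.31, -0.34 and -0.45. The list of sC6, also counted as CRABP1-negative by the study, had 13 of 26 (50%) above 0 at day 12 and 14 of 25 (56%) later. Prss35 was the called gene in the sC1 and sC7 lists and Mgp that in the lists of sC3, sC9, sC11 and sC12. Of these the study told sC3, sC9 and sC11 apart by RGS5 expression. The values of the lists are counts by direction, and genes of a list share cells and captures.

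**Figure D4:**
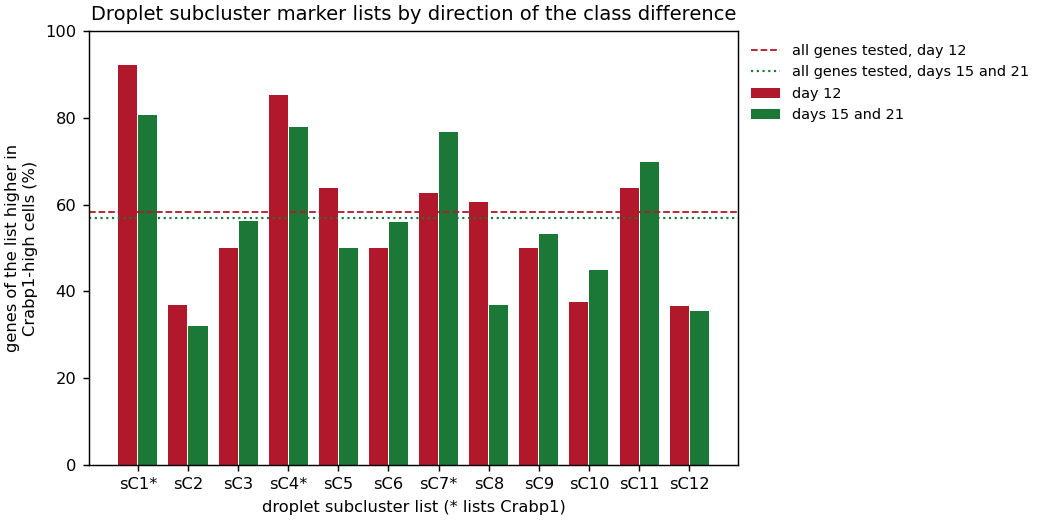
Share of the tested genes of each droplet subcluster list with a higher class value in Crabp1-high cells, in percent, at day 12 (red) and at days 15 and 21 (green), with lines at the share over all tested genes. The lists of sC1 and sC4 are above 77% at both times and those of sC2, sC10 and sC12 at or under 45%.

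The same rule was applied unchanged to the 4 captures of days 15 and 21, whose values did not enter the ranking of day 12 genes. With 91 high and 24 low cells, limma called 0 of 12764 genes (0%), and 912 had an unadjusted p under 0.05. Leaving out the cells with shared profiles gave 0 calls as well. Of the 7 genes called at day 12, 6 had the same direction later. Mgp differed by -2.01 ± 0.59 (SE, unadjusted p 0.00436, adjusted p 0.682 in limma) and was below 0 in 4 of 4 captures. Prss35 differed by 2.78 ± 0.70 (SE, unadjusted p 0.00144, adjusted p 0.682 in limma), above 0 in 4 of 4, and Vmp1 by -1.50 ± 0.55 (SE), below 0 in 4 of 4. Gm10443 was at 2.02 ± 0.56 (SE) and above 0 in 4 of 4. Thbs3 was at -1.80 ± 0.85 (SE), and its captures gave 1.04 and -5.71 (day 15), then -1.63 and -0.90 (day 21). Gm28661 was at 1.04 ± 0.59 (SE), ranging over the captures from -0.39 to 4.2, with 2 of 4 below 0. Gm37750 was the one on the other side, at 0.53 ± 0.66 (SE).

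The 3 genes of the question were then read in the later cells. Sfrp4 differed by -1.51 ± 0.64 (SE, unadjusted p 0.0331, adjusted p 0.682 in limma), with -3.75 in day 15 capture 2, -2.45 in day 21 capture 2, 0.15 in day 15 capture 1 and no RNA in either class of day 21 capture 1. It was at 10 FPKM or more in 4 of 24 low and 3 of 91 high cells. Saa3 was at 10 FPKM or more in 1 of 91 high cells and 0 of 24 low cells, and Mmp3 in 39 of 91 high and 9 of 24 low cells with a difference of -0.21 ± 0.94 (SE). The Mmp3 differences of the captures were far apart, 0.30 and -0.69 at day 15 and -3.93 and 3.46 at day 21. In day 21 capture 2 it was at that level in 19 of 21 high and 4 of 10 low cells.

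Several genes had the same direction in the later fit as at day 12, and none of them passed the adjusted threshold later. Fbln5 differed by 3.22 ± 0.65 (SE) against 2.99 at day 12, where capture 3 was at -1.05. Twist2, a basic helix-loop-helix factor of dermal fibroblasts, differed by 2.18 ± 0.59 (SE) against 1.13 at day 12. Both were above 0 in 4 of 4 later captures. Cilp, a cartilage matrix protein, had the smallest unadjusted p of those named, 8.5e-05 (adjusted p 0.682 in limma), with -3.93 ± 0.72 (SE) against -1.91 ± 0.92 (SE) at day 12. Ly6a (-2.56), Igfbp4 (-2.32), Mest (-1.92), Angptl1 (-1.93), C1s1 (-2.06), Cfb (-1.48, against -3.01 at day 12) and Gas6 (-2.08) were also below 0 later.

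The gene lists were read again in the later captures, where the median over all tested genes was 0.08 and 56.9% were above 0. Of the reticular or lower dermis list 14 of 16 genes were below 0, with a median of -0.63, and of the complement list 9 of 12, with a median of -0.26. The papillary or upper dermis list had 7 of 13 above 0, with a median of 0.18. Of the acute phase and innate defence list 5 of 11 were above 0, with a median of -0.06, and of the matricellular list 13 of 22 were below 0, with a median of -0.11. Cell cycle genes had 19 of 21 above 0, with a median of 0.46, and contractile genes 12 of 14, with a median of 1.02. Retinoid handling had 8 of 14 above 0, with a median of 0.26. No gene of these lists was called later.

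Others did not carry over. Mmp11 and Lrrc15 were at 0.09 ± 0.70 (SE) and -0.07 ± 0.72 (SE), and Col14a1 at -0.37 ± 0.65 (SE). Of 687 genes with an unadjusted p under 0.05 at day 12 that were tested at both times, 433 (63%) had the same direction later, against 54.7% of all 10931 genes. A test of the change in the class difference between day 12 and the later days called 0 of 10931 genes in limma, with 547 at an unadjusted p under 0.05 and a smallest adjusted p of 0.915.

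**Figure D5:**
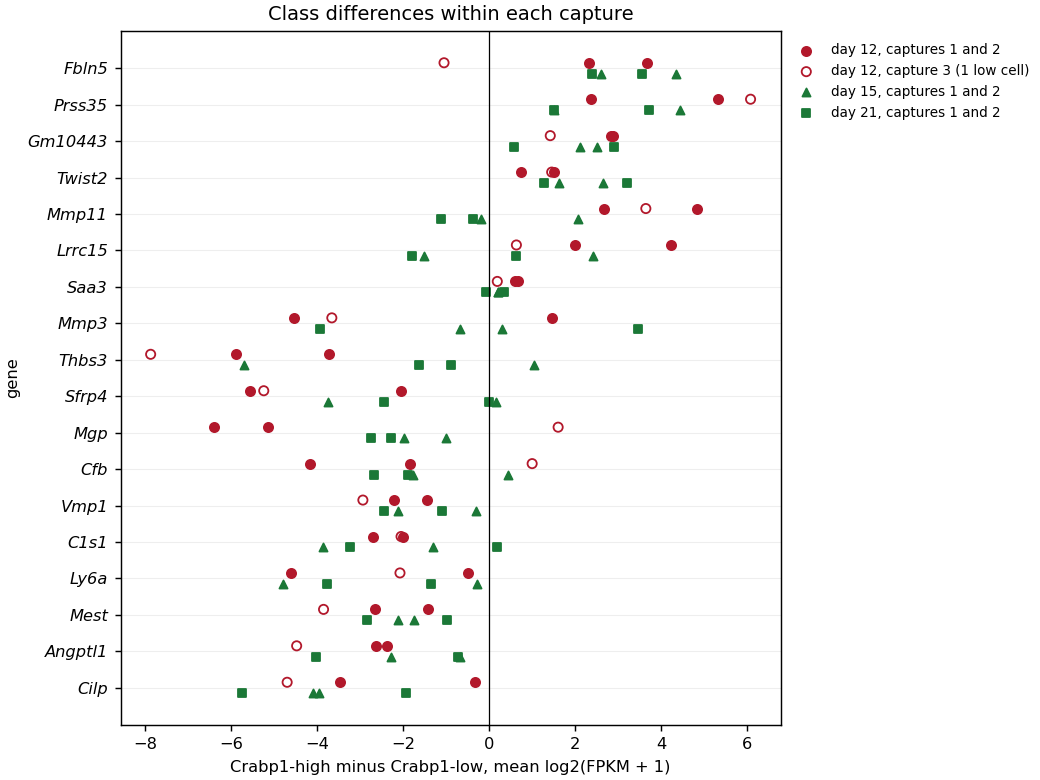
Crabp1-high minus Crabp1-low difference in mean log2(FPKM + 1) within each capture for 18 genes, with day 12 in red (open circle: capture 3, which held 1 low cell) and days 15 and 21 in green. Prss35 and Twist2 are above 0 and Vmp1, Ly6a, Mest, Angptl1 and Cilp below 0 in all 7 captures, while Mmp3 falls on both sides.

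Over all 78 matrix cells, the cells between the limits included, genes were also ordered by their Spearman correlation with Crabp1 within each capture, averaged over the 3 captures of 32, 27 and 19 cells. The 5 highest means were those of Cd63 (0.57), a tetraspanin, Myl12a (0.53), a myosin light chain, Rpsa (0.52), a ribosomal protein, Rps12-ps3 (0.51), named as a ribosomal protein pseudogene, and Flna (0.50). The 5 lowest were those of Cygb (-0.48), Nfib (-0.47), Col14a1 (-0.45), Fxyd1 (-0.45) and Mgp (-0.44). The middle 95% of genes had means between -0.24 and 0.28. These are descriptions over cells that share a capture.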

How the data were processed

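Full-length RNA of 367 single tdTomato-high wound cells in 7 captures was used. The authors aligned reads with Bowtie 1.0.0 to mm10 and computed expression with RSEM on GENCODE annotation, and the deposited values are FPKM per gene and cell for 50600 genes. The files hold no fragment counts, so count tests were not run and depth was estimated from the steps between FPKM values on 2536 single-transcript genes with an assumed fragment length of 300 bases. That estimate was tested on simulated data. Doublets were not called: the study's methods describe leaving out wells with more than a single cell by microscopy, and whether that covers every deposited cell is not given in the sources used here. Cell pairs with a profile correlation of at least 0.7 were listed, a limit chosen after seeing the data.

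Class values were means over cells of log2(FPKM + 1) wherever a capture held 3 or more cells per class (2 captures at day 12, 4 later), and genes averaging under 1 FPKM were dropped. They were compared with limma 3.58.1 in R 4.3.3, with a variance trend and the capture as a block, since both class values come from it. Tests are two-sided, p-values are adjusted after Benjamini and Hochberg over all tested genes, and 0.05 is the threshold. A difference on this scale understates the change of low genes. Crabp1, Col1a1, Rgs5, Tyrobp and the mitochondrial genes chose the cells and got no test. At day 12 the prior degrees of freedom of limma were infinite, so the spread came from the trend over genes. Plots and tables used Python with numpy, scipy and pandas.

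Named are Crabp1, Saa3, Sfrp4 and Mmp3, up to 12 genes per direction with the smallest p, the same sign in both captures and a difference of at least 1, and up to 4 genes per list with the largest difference or a call, the retinoid genes, and the 5 highest and lowest correlations with Crabp1. Of those per list only some are given, and some results are not reported here. Gm37750 and genes described for single cells or later days were chosen after their values were seen, as was the limit of 10 FPKM for counting cells. The members, lists and rule were chosen with earlier results of these data known. Marker names of sC1 to sC12 come from the study's droplet data. The alternatives were the summary over cells, pseudocounts, filters, scaling, block, variance trend, class limits, cell filters and captures or cells left out. Positions are those of GENCODE mouse release 21, on mm10.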

Additional observations from a re-analysis of the deposited data

Results flagged for a closer look

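Of 57 genes examined, 4 had a later capture whose class difference stood apart from the other 3 by more than Dixon's 95% limit, which chance passes in about 1 of 20 groups. They were Serping1 in day 15 capture 2 (-3.12), Fis1 in day 21 capture 1 (5.05), Crabp2 in day 15 capture 2 (-1.79) and Cd34 in day 15 capture 1 (0.19). Tmem150a was below 0 in captures 1 and 2 of day 12 and above 0 in all 4 later captures, with a later mean of 1.09, and the test of the change between the times gave an unadjusted p of 0.0161 and an adjusted p of 0.946 in limma.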

How the results depend on the processing

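Setting the low limit at 0, allowing at most 11000 genes or leaving out capture 3 kept the same cells in the fit. The count of 7 called genes at day 12 could therefore not change there. It was within 1.5 times of itself under the class mean, the pseudocount of 10 and the stricter filter. It was so too under both scalings, the high limit of 20 FPKM and the mitochondrial limit of 10%. The genes were not all the same: of the 6 called with the class mean only Mgp was among the 7, and of the 7 called with the pseudocount of 10, 4 were. It was 13 with a pseudocount of 0.1, 1 without a filter on low values (Mgp), 0 without the variance trend, 4 with a high limit of 200 FPKM or a low limit of 50 FPKM, 3 with at least 4000 genes, and 0 when all 3 captures entered with the 1 low cell of capture 3, an alternative chosen after seeing the data. Without the replicate block it was 0, so no call survived when the captures were not paired. Leaving out both cells of the high and low pair of capture 2 with near-equal profiles gave 16, and leaving out every cell with a shared profile 13, of which 5 were among the 7 (both chosen after seeing the data). Leaving out a low cell (also chosen after seeing the data) gave 1 to 15. Leaving out capture 1 or 2 left 1 pair and no test. Later days gave 0 calls under each alternative run. With the log2 of the class mean, the median of all day 12 genes moved from 0.15 to 0.65, Saa3 passed at 5.60 and Sfrp4 at -7.36. Sfrp4 also passed with a pseudocount of 10 (-2.38), with either scaling (-4.02 for TPM, -4.05 without mitochondrial genes) and with the 10% mitochondrial limit (-4.17), and ran from -5.57 to -2.06 with a capture or cell left out. Mmp3 ran from -4.55 to 1.47. Reversed were Ccl8 (0.21) and Cyp26b1 (0.13) with all 3 captures, Crabp2 with the class mean (2.05) and a pseudocount of 10 (0.034), and Cyp26b1 without the pair (0.17) and without all shared profiles (0.23). With a capture or cell left out Crabp2 ran from -0.84 to 0.25, Cyp26b1 from -1.41 to 0.78 and Gm37750 from -3.43 to 0.10. The cause was not tested, apart from the fewer captures and cells.

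The limits are the 13 low cells, the 2 captures in the fit, cells as the only source of a class value, and mice that the captures do not identify. No fragment counts were used, so depth is an estimate.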
